A study of Homo sapiens with 6 samples.

Results

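The 44 genes described here are interferon-stimulated genes, chosen by symbol from a written list with earlier results of these data known. They were measured by mRNA sequencing in HEK293, an established line of human embryonic kidney origin. All 44 were found among the 63677 genes of the count table (DDX58 under its current name RIGI), 43 had at least 10 fragments over the 6 libraries, and 42 passed the filter on low counts and were tested among 22331 genes. XAF1, which encodes a pro-apoptotic partner of XIAP, had 1 fragment in all. OASL, a relative of the oligoadenylate synthetases that lacks their activity, had 29 fragments and was not tested.

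Every library came from cells transfected with siRNA by Lipofectamine RNAiMAX and lysed 48 hours later, and no interferon or virus is named in the labels. The siRAB3IP group (2 libraries) received siRNA against circRAB3IP, the siCAMSAP1 group (2 libraries) received siRNA against circCAMSAP1, and the control group (2 libraries) is labelled NTC, for no template control. HEK293 is a single line that carries adenovirus E1A, a protein known to dampen transcription of interferon-stimulated genes. The labels do not say whether the 2 libraries of a group are separate cultures, so each p-value below reflects only how far these libraries differ, which may be technical.

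Groups follow the names in the authors' deposited tables, identified by library number. The titles of the sample records place 4 of the 6 libraries in other groups, and the genotype field exchanges the names of the knockdowns. Grouped by titles, no comparison had a call by edgeR (0 of 22331 genes), with unadjusted p under 0.05 for 350, 441 and 471 genes in siRAB3IP against control, siCAMSAP1 against control and siRAB3IP against siCAMSAP1, and DESeq2 was not run on that grouping. Every direction below therefore rests on the names in the deposited tables.

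Libraries held 37379217 to 39637733 fragments assigned to genes. A count of 3 in a library corresponds to 0.0726 to 0.0803 CPM (counts scaled to library size by TMM). The circular RNAs are not counted separately, so these gene counts do not check the knockdown. The linear host gene RAB3IP had 68.1 and 66.7 CPM in siRAB3IP, 56.3 and 61.6 in siCAMSAP1, and 57.5 and 62.5 in control. CAMSAP1 had 156 and 150 CPM in siRAB3IP, 139 and 138 in siCAMSAP1, and 138 and 136 in control, and neither host gene was called in any comparison. Of the listed markers of HEK293 origin, 7 of 8 were matched and their summed level was 1086 and 1359 CPM in siRAB3IP, 1358 and 1354 in siCAMSAP1, and 1671 and 1580 in control, carried by the epithelial keratins KRT8 and KRT18 and by vimentin (VIM). The renal factor PAX2 had only 1 to 9 fragments and the neurofilament gene NEFM 3 to 13.

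Interferons are secreted proteins that bind receptors joined to Janus kinases. Type I and type III interferons lead to a complex of STAT2, IRF9 and a STAT partner that binds the interferon-stimulated response element (ISRE), while interferon gamma leads to STAT dimers that bind the gamma-activated site (GAS). IRF1 and IRF7 extend the response, and several target genes are also switched on directly by IRF factors after double-stranded RNA is sensed, without interferon. The products sense or destroy viral RNA, block translation or viral entry, or tag proteins with the ubiquitin-like ISG15.

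The upstream sequences of the members show the element by which the list is usually known, and some are printed so that genes which changed can be set beside neighbours that did not. The RefSeq promoter table (GRCh38.p14, 250 bases before to 50 after the start of each gene) held 35 of the 44 members. The ISRE core, which is GAAA, any 2 bases and GAAA again, read on both strands, was in 23 of 35 member windows (65.7%), against 996 of 27305 windows in the table (3.65%). The GAS word TTCNNNGAA, the same on both strands, was in 10 of 35 (28.6%), against 7.88% of all windows, and a kB word on either strand in 3 of 35 (8.57%), against 5.67%. ISRE and GAS words overlapped each other in 3 member windows (BST2, IFI27 and IFITM1). Each line below gives 30 bases 5′ to 3′ on the strand of the gene, in GRCh38.p14, with the ISRE word nearest the end of the window in capitals (for IRF1, the GAS word and 29 bases).
GBP1, chr1:89065316-89065345, minus strand: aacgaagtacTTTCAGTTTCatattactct
GBP3, chr1:89022845-89022874, minus strand: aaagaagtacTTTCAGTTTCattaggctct
IFI44, chr1:78649761-78649790, plus strand: gcacactgagTTTCAGTTTCctttctctga
IFI44L, chr1:78620365-78620394, plus strand: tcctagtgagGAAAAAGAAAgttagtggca
OAS3, chr12:112938452-112938481, plus strand: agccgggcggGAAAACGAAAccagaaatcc
IFIT3, chr10:89327865-89327894, plus strand: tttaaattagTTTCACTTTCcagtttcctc
IFIT1, chr10:89392510-89392539, plus strand: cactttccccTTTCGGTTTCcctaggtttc
IFIT5, chr10:89414554-89414583, plus strand: atttcttaagTTTCAGTTTCtgagcgctcg
EIF2AK2, chr2:37156967-37156996, minus strand: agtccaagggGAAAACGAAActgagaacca
IFITM3, chr11:320876-320905, minus strand: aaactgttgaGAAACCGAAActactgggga
IRF1, chr5:132490879-132490907, minus strand: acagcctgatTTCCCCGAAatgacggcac

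The windows of GBP1 and GBP3 were identical at 25 of 30 aligned bases without gaps, the most among 253 pairs of 23 ISRE windows, whose median was 11 bases. All windows were cut around the word, so its fixed letters match in any pair that holds it in the same orientation. The pairs mix both orientations, so the median is not a baseline for the GBP pair. In the GBP1 window the word lay 127 to 118 bases before the annotated start, and in the GBP3 window it lay just past it. The word was in 8 of 12 windows of members called higher in siRAB3IP than in control (66.7%), in the window of IFIT1, which was called lower, and in 14 of 21 windows of tested members that were not called (66.7%). A match of letters is a description of the sequence and not a binding site.

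In siRAB3IP cells 13 members rose and 1 fell relative to control, led by the guanylate-binding proteins GBP1 and GBP3, the oligoadenylate synthetase OAS1, IFI44 and SAMD9L, while IFIT1 fell. The called members ranged from low-level genes that rose several-fold to abundant ones (OAS3, EIF2AK2, DTX3L, HERC5) that rose by less than 1.5-fold. These calls were made at a Benjamini-Hochberg adjusted p under 0.05 by edgeR's quasi-likelihood test. Over all 22331 genes the share called was 11.6% (6.39% higher and 5.24% lower), against 14 of 42 members. The list was chosen with earlier results of these data known, so such contrasts with all genes are descriptions and not independent tests. The median log2 fold change was 0.30 over the 42 members and -0.01 over all genes tested. Both siRAB3IP libraries lay above both control libraries in 24 members, against 25.9% of all genes, and below both in 4, against 27.8%. In bulk RNA, a few cells with much of a transcript and many cells with little of it cannot be told apart.

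The siRAB3IP libraries differed from each other in these genes. Replicate 2 was the higher for 34 of 42 members, where 50.1% of all genes were higher in it, and the summed level of the members was 960 and 1056 CPM in siRAB3IP, 924 and 966 in siCAMSAP1, and 824 and 859 in control. Replicate 2 was also the higher for 28 members in siCAMSAP1 and for 28 in control. Without siRAB3IP replicate 2 the member median was 0.23, and without siRAB3IP replicate 1 it was 0.41. GBP1, GBP3, IFIT1, IRF1 and OAS3 kept their calls in both of these fits. Other members lost theirs in at least 1 of them, while fewer of all genes passed as well.

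**Figure D1:**
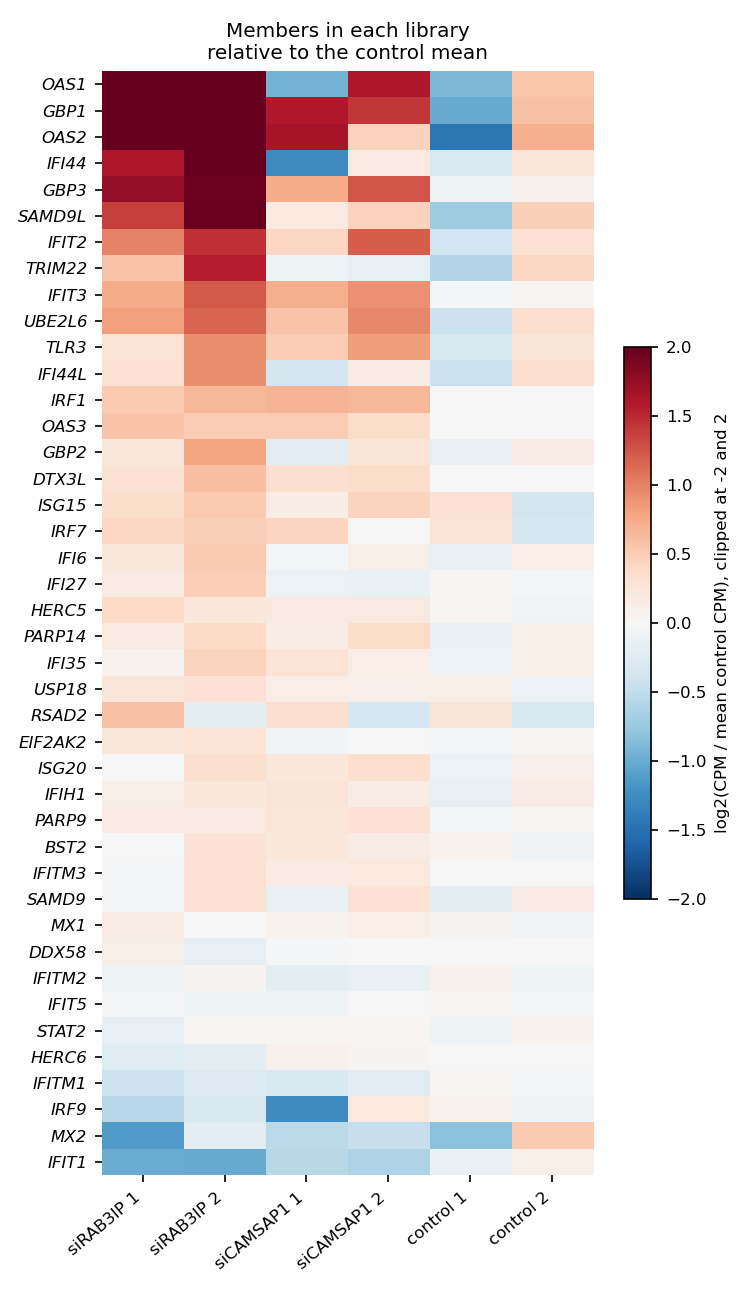
Each cell shows the log2 ratio of a member's CPM in a library to its mean CPM in the 2 control libraries, clipped at -2 and 2, for the 42 tested members ordered by their fold change in siRAB3IP. The siRAB3IP columns are darkest red in the upper rows, with replicate 2 the higher of the pair for 34 of 42 members, and IFIT1 at the bottom is blue in all 4 knockdown libraries.

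In siCAMSAP1 cells 3 members rose relative to control, the transcription factor IRF1, the synthetase OAS3 and GBP3, and all 3 also rose in siRAB3IP. In the edgeR fit used here, which has no replicate block, 0 members fell, as by DESeq2, while 2 members (IFIT1 and IFITM1) were lower at an unadjusted p under 0.05. With no filter on low counts DTX3L, GBP1, IFIT3 and TLR3 were called higher as well. Over all genes 0.94% were called (0.448% higher and 0.493% lower). The member median was 0.18, against 0.00 over all genes tested (0.0008). Both siCAMSAP1 libraries lay above both control libraries in 19 members, against 20.6% of all genes, and below both in 4, against 20.9%. The knockdowns share the same control libraries, and their differences from control are given side by side and not as a correlation. IRF1 alone kept its call without siCAMSAP1 replicate 2, without control replicate 1 or without control replicate 2. The member medians in these fits were 0.15, 0.15 and 0.24.

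Set directly against siCAMSAP1, siRAB3IP had higher levels of 5 members, namely IFI44, SAMD9L, GBP1, GBP3 and EIF2AK2. In the edgeR fit without a replicate block 0 members were called lower, as by DESeq2, while 2 members (IFIT1 and HERC6) were lower at an unadjusted p under 0.05. With no filter on low counts IFI44L, OAS1 and TRIM22 were called higher as well. Of all genes, 8.85% were called in this comparison (4.89% higher and 3.96% lower). The member median was 0.12, against -0.01 over all genes. Both siRAB3IP libraries lay above both siCAMSAP1 libraries in 14 members, against 25.8% of all genes, and below both in 3, against 26.4%. Without siRAB3IP replicate 2 the member median of this comparison was 0.05 and no member call was kept. IFI44 alone kept its call without siCAMSAP1 replicate 1, and IFI44, SAMD9L and GBP3 kept theirs without siCAMSAP1 replicate 2. In each of these fits fewer of all genes passed as well.

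**Figure D2:**
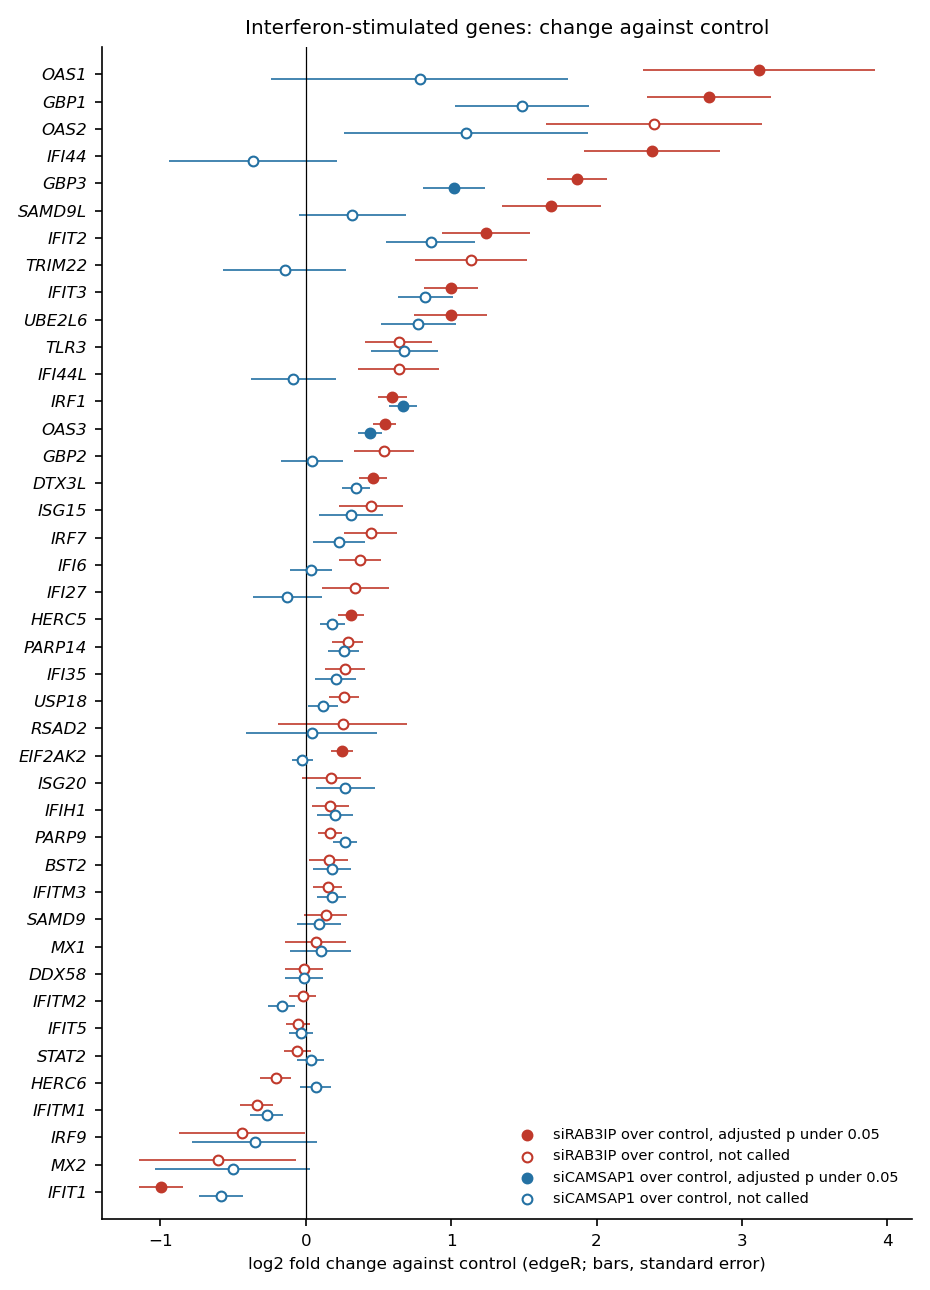
Points give edgeR log2 fold changes against control with standard errors for the 42 tested members, siRAB3IP in red and siCAMSAP1 in blue, filled where the adjusted p was under 0.05. There are 14 filled red points, of which IFIT1 alone lies left of 0, and 3 filled blue points (IRF1, OAS3 and GBP3).

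Of the 4 transcription factors, IRF1 rose in both knockdowns and IRF7, IRF9 and STAT2 were not called. IRF1 activates many of the other members and is itself a target of interferon gamma, and the GAS word in its window is printed above. IRF1 had 21.7 and 24.04 CPM in siRAB3IP, 24.2 and 23.9 in siCAMSAP1, and 15.0 and 15.2 in control. The control libraries lay close together below all 4 knockdown libraries. The log2 fold change of IRF1 (hg19 chromosome 5, 131817301 to 131826490) was 0.59 ± 0.10 (SE, adjusted p = 0.00273) in siRAB3IP and 0.67 ± 0.10 (adjusted p = 0.00928) in siCAMSAP1. Between the knockdowns the difference was -0.07 ± 0.10 (adjusted p = 0.713). Of the 50-base words in IRF1 transcripts of GENCODE release 29, 22% also occur in other genes, mainly C5orf56, although no exon of another gene overlaps IRF1 in the count file. In the deposited tables of the authors, IRF1 is likewise listed as higher, by 0.60 in siRAB3IP and 0.67 in siCAMSAP1 on the log2 scale.

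IRF7, the factor that amplifies interferon alpha genes, had 16.95 and 17.6 CPM in siRAB3IP, 17.1 and 12.6 in siCAMSAP1, and 15.4 and 10.1 in control. The libraries of siCAMSAP1 and control differed within their groups by more than the means of siCAMSAP1 and control differed. Both siRAB3IP libraries of IRF7 lay above both control libraries. The log2 fold change of IRF7 was 0.45 ± 0.18 (adjusted p = 0.138) in siRAB3IP. STAT2, the partner of IRF9 in the ISRE-binding complex, had 39.7 and 45.3 CPM in siRAB3IP, 45.3 and 45.3 in siCAMSAP1, and 41.8 and 46.7 in control. These ranges overlapped, and the log2 fold changes of STAT2 were -0.06 ± 0.09 in siRAB3IP and 0.03 ± 0.09 in siCAMSAP1. IRF9 had 0.582 and 0.692 CPM in siRAB3IP, 0.361 and 0.991 in siCAMSAP1, and 0.910 and 0.823 in control, with no call in any comparison. The level of IRF9 is uncertain, since 48.4% of its exonic bases are shared with a second annotated gene (ENSG00000259529) and such fragments are not assigned.

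Of the 3 sensors of foreign RNA, 0 were called by edgeR as fitted here, with TLR3 the 1 sensor at an unadjusted p under 0.05. DDX58, which encodes the cytosolic sensor RIG-I, averaged 9.76 ± 1.38 CPM in siRAB3IP, 9.80 ± 0.22 in siCAMSAP1 and 9.86 ± 0.12 in control (SD, n = 2 each). IFIH1, which encodes the long-RNA sensor MDA5, averaged 13.9 ± 0.63 CPM in siRAB3IP, 14.2 ± 0.71 in siCAMSAP1 and 12.4 ± 1.80 in control, with no call. TLR3, the endosomal receptor for double-stranded RNA, had 5.98 and 9.40 CPM in siRAB3IP, 7.01 and 8.79 in siCAMSAP1, and 3.96 and 5.88 in control. All knockdown libraries of TLR3 lay above both control libraries, and its log2 fold changes of 0.64 ± 0.23 (adjusted p = 0.0949) in siRAB3IP and 0.68 ± 0.23 (adjusted p = 0.232) in siCAMSAP1 did not pass. With no filter on low counts TLR3 was called higher in both, with an adjusted p by edgeR of 0.00875 in siRAB3IP and 0.0186 in siCAMSAP1. In siRAB3IP it was also called without siRAB3IP replicate 1 and without control replicate 2. The authors' deposited table for siRAB3IP lists TLR3 as higher, by 0.65 with an adjusted p of 0.0468.

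Among the enzymes that double-stranded RNA activates, OAS1, OAS3 and EIF2AK2 rose in siRAB3IP and OAS3 rose in siCAMSAP1. The oligoadenylate synthetases make the second messenger that switches on RNase L. OAS3, the most abundant of them, had 107 and 102 CPM in siRAB3IP, 102 and 92.9 in siCAMSAP1, and 71.6 and 72.0 in control. The knockdown libraries all lay above control. The log2 fold change of OAS3 (hg19 chromosome 12, 113376157 to 113411054) was 0.54 ± 0.08 (adjusted p = 0.00135) in siRAB3IP and 0.44 ± 0.08 (adjusted p = 0.0239) in siCAMSAP1. The siCAMSAP1 call of OAS3 was lost without any single library of siCAMSAP1 or control (log2 fold changes of 0.37 to 0.51 and adjusted p of 0.0534 to 0.217).

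OAS1 was near the limit of detection. It had 14 and 21 fragments in siRAB3IP, 1 and 6 in siCAMSAP1, and 1 and 3 in control. Both siRAB3IP libraries lay above the other 4, which held few fragments each. The ratio of summed, depth-scaled counts for OAS1 was 9.14 for siRAB3IP over control, with an exact 95% interval of 3.27 to 35.4 that covers counting error only. The edgeR call (adjusted p = 0.0251) was lost when either siRAB3IP library or either control library was left out, with log2 fold changes of 2.63 to 3.96 and adjusted p of 0.0787 to 0.182. OAS2 showed a like pattern without a call, with 12 and 19 fragments in siRAB3IP, 9 and 4 in siCAMSAP1, and 1 and 5 in control (adjusted p = 0.0557 for siRAB3IP against control). OASL had 3 and 9 fragments in siRAB3IP, 0 and 2 in siCAMSAP1, and 10 and 5 in control.

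EIF2AK2 encodes PKR, the kinase that halts translation when it binds double-stranded RNA. EIF2AK2 had 149 and 154 CPM in siRAB3IP, 122 and 128 in siCAMSAP1, and 125 and 129 in control. The siRAB3IP libraries lay above the other 4, which overlapped. Its log2 difference was 0.25 ± 0.08 (adjusted p = 0.0498) against control and 0.27 ± 0.08 (adjusted p = 0.0412) against siCAMSAP1. The call against control was lost without any single library, at log2 fold changes of 0.23 to 0.28 and adjusted p of 0.0723 to 0.239, so it sits at the threshold. The call against siCAMSAP1 was lost without any single library of these 2 groups, at 0.25 to 0.31 and adjusted p of 0.115 to 0.241.

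The IFIT genes, which encode proteins that bind viral RNA 5′ ends or other RNAs to block their translation, lie within 119.0 kb on chromosome 10 and moved in different directions. IFIT2 had 3.04 and 4.23 CPM in siRAB3IP, 2.04 and 3.56 in siCAMSAP1, and 1.18 and 1.89 in control. IFIT3, which stabilizes IFIT1 in a complex, had 5.39 and 7.56 CPM in siRAB3IP, 5.34 and 6.12 in siCAMSAP1, and 3.18 and 3.29 in control. For both genes every knockdown library lay above both control libraries. In siRAB3IP the log2 fold changes were 1.24 ± 0.30 (adjusted p = 0.0202) for IFIT2 and 0.9995 ± 0.19 (adjusted p = 0.00504) for IFIT3. In siCAMSAP1 they were 0.86 ± 0.31 (adjusted p = 0.264) for IFIT2 and 0.82 ± 0.19 (adjusted p = 0.0642) for IFIT3. Without siRAB3IP replicate 2, IFIT2 gave 0.98 (adjusted p = 0.149) and IFIT3 0.74 (adjusted p = 0.0567), and without control replicate 1, IFIT2 gave 0.95 (adjusted p = 0.0985).

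IFIT1, between them and IFIT5 on the chromosome, fell. IFIT1 had 3.83 and 3.81 CPM in siRAB3IP, 5.21 and 4.98 in siCAMSAP1, and 6.98 and 8.25 in control. The groups did not overlap, with siCAMSAP1 between siRAB3IP and control. The log2 fold change of IFIT1 (hg19 chromosome 10, 91152303 to 91163745) was -0.9959 ± 0.15 (adjusted p = 0.0017) in siRAB3IP, -0.58 ± 0.15 (adjusted p = 0.104) in siCAMSAP1, and -0.41 ± 0.16 (adjusted p = 0.131) between the knockdowns. Leaving out any library kept the siRAB3IP call of IFIT1. IFIT5, the next gene, had 51.6 and 49.4 CPM in siRAB3IP, 49.5 and 52.9 in siCAMSAP1, and 54.0 and 50.9 in control, and these ranges overlapped. All 3 IFIT genes with a window in the promoter table (IFIT1, IFIT3 and IFIT5) held at least 1 ISRE word, although IFIT3 rose, IFIT1 fell and IFIT5 was not called.

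**Figure D3:**
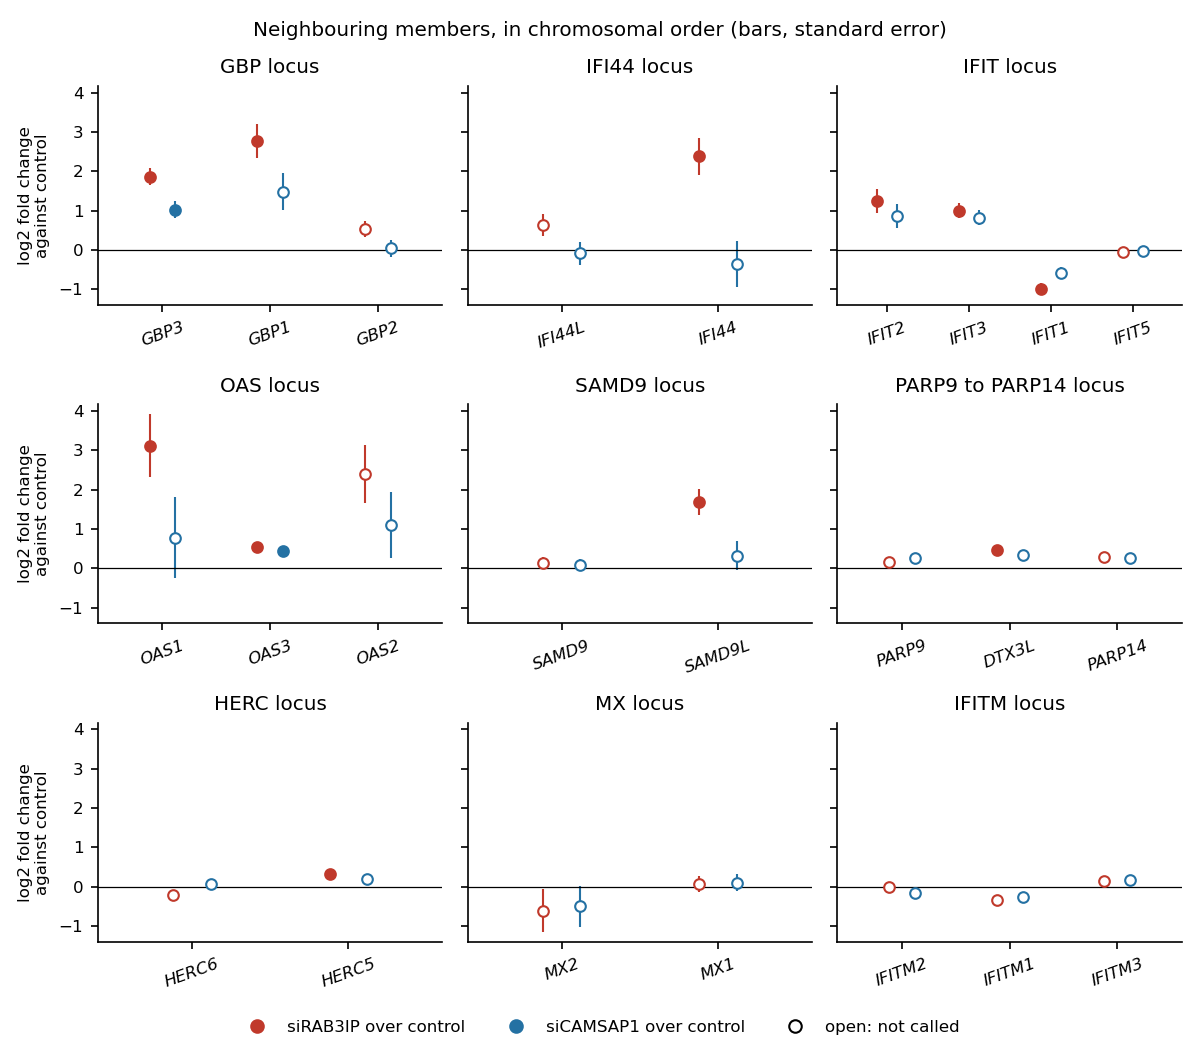
Panels give edgeR log2 fold changes against control with standard errors for members that lie next to each other, in chromosomal order, siRAB3IP in red and siCAMSAP1 in blue, filled where called. At the IFIT locus IFIT2 and IFIT3 lie above 0 and IFIT1 below it, and at the IFI44 and SAMD9 loci 1 gene of each pair is filled.

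Among the antiviral GTPases, GBP1 and GBP3 rose and GBP2, MX1 and MX2 were not called. Guanylate-binding proteins coat pathogen vacuoles and are classical targets of interferon gamma and IRF1. GBP1 had 2.22 and 4.55 CPM in siRAB3IP, 1.47 and 1.30 in siCAMSAP1, and 0.241 and 0.726 in control. GBP3 had 6.11 and 7.03 CPM in siRAB3IP, 3.02 and 4.29 in siCAMSAP1, and 1.69 and 1.91 in control. For both genes the groups did not overlap, with siCAMSAP1 between siRAB3IP and control.

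GBP1 (hg19 chromosome 1, 89518002 to 89531043) rose by 2.78 ± 0.43 on the log2 scale in siRAB3IP (adjusted p = 0.00166), and its difference in siCAMSAP1 was 1.48 ± 0.46 (adjusted p = 0.193). GBP3 (hg19 chromosome 1, 89472349 to 89488577) rose by 1.86 ± 0.21 in siRAB3IP (adjusted p = 0.000255) and by 1.02 ± 0.21 in siCAMSAP1 (adjusted p = 0.0457). The siCAMSAP1 call of GBP3 did not pass by limma-voom (adjusted p = 0.0879). In edgeR it did not pass with upper-quartile scaling (adjusted p = 0.055), a stricter filter (0.0686) or the compared groups alone (0.0905). It passed by DESeq2, with RLE scaling, with no filter, with a replicate block and with a robust estimate of the spread. Against siCAMSAP1, siRAB3IP was higher by 1.29 ± 0.37 for GBP1 (adjusted p = 0.0483) and by 0.84 ± 0.19 for GBP3 (adjusted p = 0.0169). Leaving out any library kept the siRAB3IP calls against control, with 2.17 for GBP1 and 1.76 for GBP3 without siRAB3IP replicate 2. The siCAMSAP1 call of GBP3 was lost when any library but siCAMSAP1 replicate 1 was left out, with adjusted p of 0.0503 to 0.284. The difference of GBP1 between the knockdowns was 0.68 (adjusted p = 0.453) without siRAB3IP replicate 2, and its call was also lost without siCAMSAP1 replicate 1 or replicate 2. That of GBP3 was lost without siRAB3IP replicate 2 (0.74, adjusted p = 0.129) or siCAMSAP1 replicate 1 (0.62, adjusted p = 0.145).

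The GBP genes resemble each other, and 9.62% of the 50-base words of GBP1 and 4.76% of those of GBP3 occur in other genes, among them each other and the pseudogene GBP1P1. Counts could thus be divided between them to that extent. GBP2, the next member on chromosome 1, had 6.88 and 10.1 CPM in siRAB3IP, 5.05 and 7.01 in siCAMSAP1, and 5.22 and 6.48 in control, with a log2 fold change of 0.54 ± 0.21 (adjusted p = 0.118) in siRAB3IP. MX1, the dynamin-like GTPase that traps viral nucleoproteins, averaged 2.14 ± 0.16 CPM in siRAB3IP, 2.19 ± 0.07 in siCAMSAP1 and 2.04 ± 0.11 in control (SD, n = 2 each). MX2 had 9 to 31 fragments in a library and was not called.

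Within the ISG15 pathway, the conjugating enzyme UBE2L6 and the ligase HERC5 rose in siRAB3IP, while ISG15 itself, the deconjugating protease USP18 and HERC6 were not called. Of the ubiquitin ligases listed with them, DTX3L rose in siRAB3IP and TRIM22 was not called. UBE2L6 had 3.62 and 4.63 CPM in siRAB3IP, 3.07 and 4.01 in siCAMSAP1, and 1.52 and 2.59 in control. HERC5 had 55.7 and 49.1 CPM in siRAB3IP, 47.9 and 48.0 in siCAMSAP1, and 43.6 and 40.8 in control. DTX3L, which works in a complex with PARP9, had 68.4 and 84.4 CPM in siRAB3IP, 69.6 and 71.2 in siCAMSAP1, and 55.5 and 55.2 in control. For all 3 genes the knockdown libraries lay above both control libraries.

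In siRAB3IP the log2 fold changes were 0.9956 ± 0.25 for UBE2L6 (adjusted p = 0.0248), 0.31 ± 0.09 for HERC5 (adjusted p = 0.0384) and 0.46 ± 0.10 for DTX3L (adjusted p = 0.00931). In siCAMSAP1 they were 0.77 ± 0.26 for UBE2L6 (adjusted p = 0.226), 0.18 ± 0.09 for HERC5 (adjusted p = 0.438) and 0.35 ± 0.10 for DTX3L (adjusted p = 0.142). The HERC5 call was lost without either library of siRAB3IP or of control (0.22 to 0.40, adjusted p of 0.0551 to 0.303). UBE2L6 lost its call without siRAB3IP replicate 2 (0.81, adjusted p = 0.164) or control replicate 1 (0.67, adjusted p = 0.129), and DTX3L without siRAB3IP replicate 2 (0.31, adjusted p = 0.120). DTX3L shares 3.7% of its exonic bases with PARP9 on the other strand, and the counting used no strand setting.

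ISG15 averaged 4.63 ± 0.38 CPM in siRAB3IP, 4.21 ± 0.62 in siCAMSAP1 and 3.41 ± 1.09 in control (SD, n = 2 each), with a log2 fold change of 0.45 ± 0.22 (adjusted p = 0.217) in siRAB3IP. TRIM22, a ligase that restricts retroviruses, had 1.19 and 2.37 CPM in siRAB3IP, 0.748 and 0.711 in siCAMSAP1, and 0.535 and 1.06 in control. Both siRAB3IP libraries of TRIM22 lay above the other 4, at 1.14 ± 0.39 over control (adjusted p = 0.0787) and 1.28 ± 0.39 over siCAMSAP1 (adjusted p = 0.0622). Levels of USP18 and TRIM22 are less certain, since 23.4% and 13.4% of their 50-base words occur in other genes. With no filter on low counts 6 further members were called higher in siRAB3IP against control, namely GBP2, IRF7, OAS2, PARP14, TLR3 and TRIM22, and EIF2AK2 was no longer called. PARP14 and PARP9, the ADP-ribosyltransferases of the list, were not called in any comparison as fitted here, with log2 fold changes of 0.29 ± 0.11 and 0.17 ± 0.08 in siRAB3IP and of 0.26 ± 0.11 and 0.27 ± 0.08 in siCAMSAP1. The authors' deposited tables list PARP14 as higher in both, by 0.30 in siRAB3IP and 0.28 in siCAMSAP1.

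The remaining called members were IFI44 and SAMD9L, whose neighbours IFI44L and SAMD9 were not called, and the difference between neighbours was not tested. IFI44, a cytoplasmic protein with antiproliferative effects, had 1.51 and 3.67 CPM in siRAB3IP, 0.206 and 0.559 in siCAMSAP1, and 0.401 and 0.581 in control. Both siRAB3IP libraries lay above the other 4, and siCAMSAP1 overlapped control. IFI44 (hg19 chromosome 1, 79115481 to 79129763) rose by 2.38 ± 0.47 on the log2 scale over control (adjusted p = 0.00651) and by 2.75 ± 0.49 over siCAMSAP1 (adjusted p = 0.00457). Without siRAB3IP replicate 2 the values were 1.61 over control (adjusted p = 0.0986) and 1.97 over siCAMSAP1 (adjusted p = 0.0678). Its neighbour IFI44L had 3.49 and 5.38 CPM in siRAB3IP, 2.19 and 3.17 in siCAMSAP1, and 2.09 and 3.58 in control, where siRAB3IP overlapped control. The log2 fold changes of IFI44L were 0.64 ± 0.28 over control (adjusted p = 0.170) and 0.72 ± 0.28 over siCAMSAP1 (adjusted p = 0.139), the second of which passed with no filter on low counts (adjusted p = 0.0246). Both windows hold the ISRE word, on opposite strands in the lines printed above.

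SAMD9L restrains cell growth and viral replication, as does its neighbour SAMD9, the more abundant of the pair per length (6.76 against 0.238 CPM per kilobase over the 6 libraries). SAMD9L had 2.41 and 3.62 CPM in siRAB3IP, 1.06 and 1.27 in siCAMSAP1, and 0.562 and 1.28 in control. Both siRAB3IP libraries lay above the other 4, which overlapped. SAMD9L (hg19 chromosome 7, 92759368 to 92777682) rose by 1.69 ± 0.34 over control (adjusted p = 0.00741) and by 1.37 ± 0.33 over siCAMSAP1 (adjusted p = 0.0219). Without siRAB3IP replicate 2 the values were 1.37 over control (adjusted p = 0.0747) and 1.05 over siCAMSAP1 (adjusted p = 0.198), and the call over siCAMSAP1 was also lost without siCAMSAP1 replicate 1 (1.25, adjusted p = 0.108). SAMD9 averaged 48.3 ± 7.76 CPM in siRAB3IP, 46.8 ± 9.91 in siCAMSAP1 and 43.9 ± 7.44 in control (SD, n = 2 each), with a log2 fold change of 0.14 ± 0.15 in siRAB3IP. The exonuclease ISG20, IFI35 and RSAD2, which encodes viperin, were not called, with log2 fold changes of 0.18 to 0.27 in siRAB3IP.

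**Figure D4:**
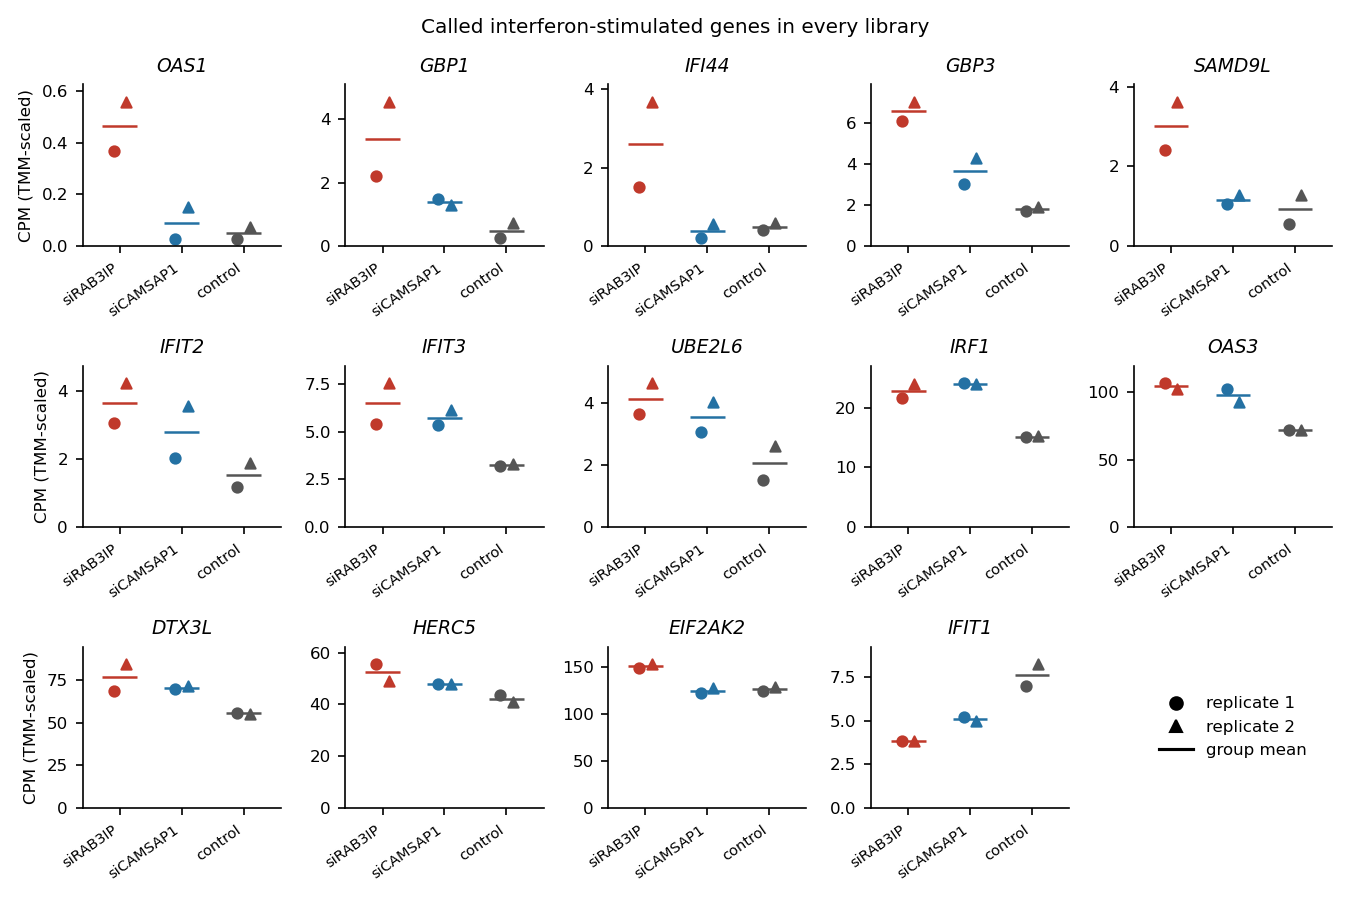
Panels show CPM (vertical axis, starting at 0) in each library for the 14 members called in any comparison, with circles for replicate 1, triangles for replicate 2 and a line at the group mean of 2 libraries. In 13 panels both siRAB3IP points lie above both control points, as for GBP1 at 2.22 and 4.55 against 0.241 and 0.726 CPM, and in the IFIT1 panel they lie below.

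Over the 6 libraries the 5 highest levels per length were those of IFITM3 (45.9 CPM per kilobase of exon), IFITM2 (25.9), IFI6 (14.1), IFIT5 (12.8) and EIF2AK2 (12.5), of which EIF2AK2 alone was called. DTX3L, OAS3 and HERC5, at ranks 7, 8 and 11 per length, were called as well. The IFITM proteins sit in membranes and block fusion of enveloped viruses. IFITM3 had 56.4 and 70.8 CPM in siRAB3IP, 64.3 and 65.4 in siCAMSAP1, and 56.8 and 57.7 in control. IFITM2 had 33.1 and 36.4 CPM in siRAB3IP, 30.8 and 32.0 in siCAMSAP1, and 37.3 and 33.2 in control. Neither gene was called, and the siRAB3IP libraries of each overlapped control.

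IFI6, a protein that restrains flaviviruses, had 12.7 and 15.9 CPM in siRAB3IP, 10.7 and 11.9 in siCAMSAP1, and 9.95 and 12.1 in control. Its log2 fold change in siRAB3IP over control was 0.37 ± 0.14 (adjusted p = 0.113). IFITM1 was the member nearest to a second fall, with 11.2 and 12.6 CPM in siRAB3IP, 12.1 and 12.8 in siCAMSAP1, and 15.3 and 14.8 in control. All 4 knockdown libraries of IFITM1 lay below control, at -0.34 ± 0.11 (adjusted p = 0.0735) in siRAB3IP and -0.27 ± 0.11 (adjusted p = 0.353) in siCAMSAP1. IFITM levels are uncertain, because 32.0%, 34.3% and 35.2% of the 50-base words of IFITM1, IFITM2 and IFITM3 occur in other genes, mostly one another. BST2, the tether that holds budding virions, and IFI27 were not called either, with log2 fold changes of 0.16 ± 0.13 and 0.34 ± 0.23 in siRAB3IP. In CPM per kilobase the ranges of IFI6, IFIT5 and EIF2AK2 over the 3 groups overlapped, whereas IFITM3 stood above IFITM2 in every group.

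**Figure D5:**
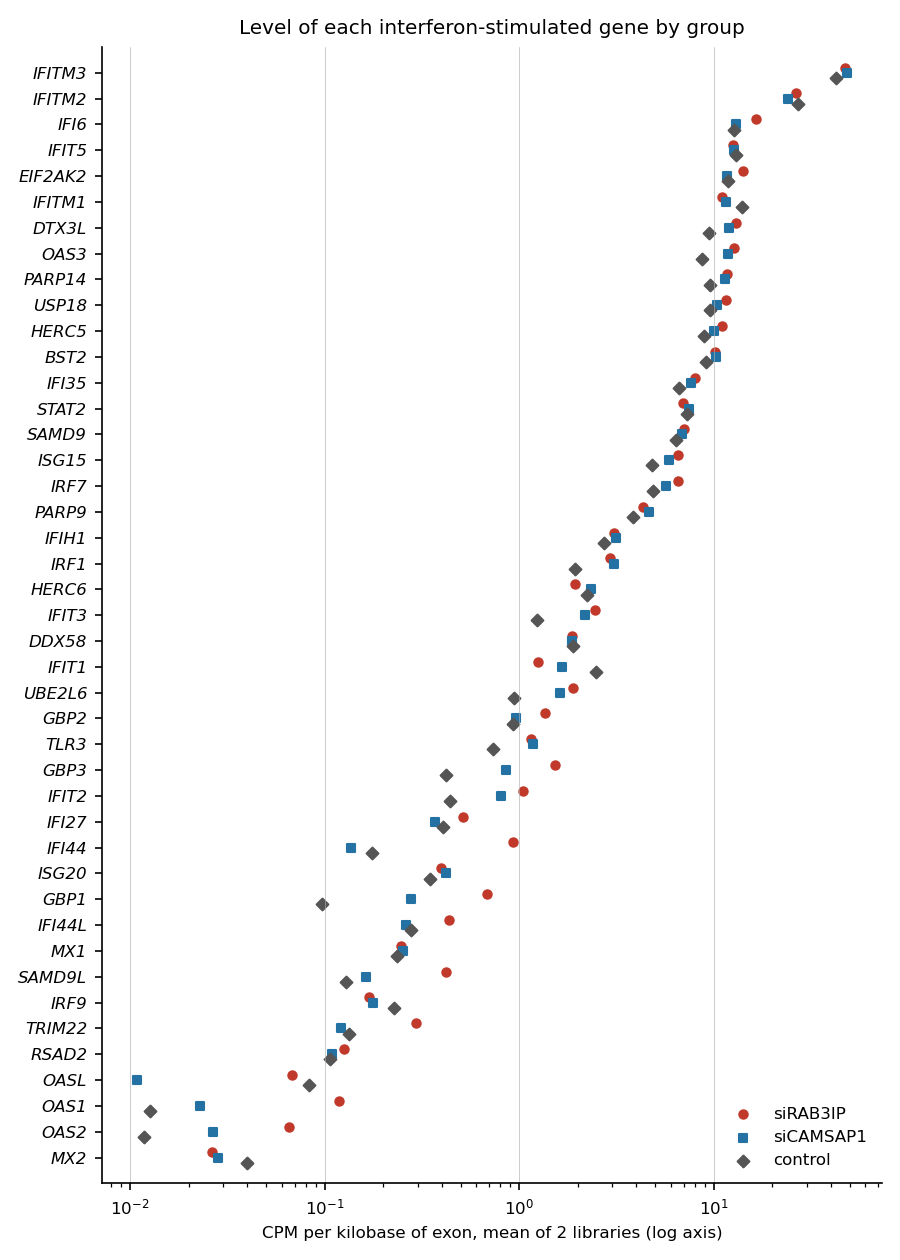
Points give the mean level of each member in siRAB3IP (red circles), siCAMSAP1 (blue squares) and control (grey diamonds) as CPM per kilobase of exon on a log axis, for the 43 members with at least 10 fragments. IFITM3 is highest at 47.2 in siRAB3IP, 48.1 in siCAMSAP1 and 42.5 in control. The groups separate widely in the lower part of the plot, at OAS1, OASL, GBP1 and IFI44. At OASL, which rests on few fragments, siCAMSAP1 is lowest (0.0109) and control highest (0.0832).

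The other parts of the interferon pathway were read from further lists. Of 11 interferon genes, 4 had no fragment in any library (IFNA2, IFNA5, IFNG and IFNL2) and 5 had 1 to 9 fragments in all. Only IFNK was tested, with at most 20 fragments in a library and no call. IFNB1, the first interferon made after RNA sensing, had 4 fragments in siRAB3IP replicate 2 and 0 in the other 5 libraries, and a count of 0 allows up to 0.0726 to 0.0803 CPM.

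Over all genes 11.6% were called in siRAB3IP against control, 0.94% in siCAMSAP1 against control and 8.85% between the knockdowns. All 9 receptor and Janus kinase genes were tested, with a median log2 fold change of -0.01 in siRAB3IP. JAK1 alone was called, and 1 of 9 is near the share of all genes called in siRAB3IP. JAK1, the kinase shared by the receptors of all interferon types, had 110 and 102 CPM in siRAB3IP, 180 and 184 in siCAMSAP1, and 162 and 155 in control. Both siRAB3IP libraries lay far below the other 4. JAK1 fell by 0.58 on the log2 scale in siRAB3IP relative to control (SE 0.08, adjusted p = 0.000767) and by 0.78 relative to siCAMSAP1 (adjusted p = 0.000166). Of 16 genes of nucleic acid sensing and interferon induction, 11 were tested, with a median of 0.16 in siRAB3IP. IKBKE was read only from an entry on a patch scaffold, with 0 fragments there, so its level is unknown. In siRAB3IP 3 of the 11 were called, against 11.6% of all genes. The adaptors TICAM1 (0.62 ± 0.12) and TRAF3 (0.41 ± 0.09) rose and the adaptor STING1 (-0.43 ± 0.10) fell. TICAM1 had 11.4 and 11.6 CPM in siRAB3IP, 9.49 and 9.50 in siCAMSAP1, and 7.44 and 7.48 in control. In siCAMSAP1 against control 0 of the 11 were called by edgeR or DESeq2, with 3 at an unadjusted p under 0.05, and STING1 was also lower in siRAB3IP than in siCAMSAP1 (-0.42 ± 0.10).

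Of 10 inhibitors of interferon signalling, all tested, NLRC5 alone was called in siRAB3IP, where it rose (0.52 ± 0.14). That is near the 11.6% called over all genes. The median of the 10 inhibitors was -0.07 in siRAB3IP. In siCAMSAP1 edgeR called 0 of them, with 2 at an unadjusted p under 0.05, and DESeq2 called 1. NLRC5, which also activates MHC class I genes, had 11.9 and 16.3 CPM in siRAB3IP, 14.6 and 15.8 in siCAMSAP1, and 9.68 and 10.1 in control. Of 34 other interferon-stimulated genes, 31 were tested. In siRAB3IP 5 rose and 1 fell relative to control, against 6.39% and 5.24% of all genes, with a median log2 fold change of 0.07. In siCAMSAP1 only STAT3 rose (0.40 ± 0.08), against 0.448% of all genes called higher, with a median of 0.08. The risers in siRAB3IP were the chemokine CXCL10 (2.47 ± 0.49), NMI (0.61 ± 0.16), TRIM5 (0.33 ± 0.08), SHISA5 (0.29 ± 0.08) and TRIM25 (0.28 ± 0.08), and the RNA editor ADAR fell (-0.30 ± 0.08). CXCL10 had 0.926 and 1.06 CPM in siRAB3IP, 0.258 and 0.406 in siCAMSAP1, and 0.107 and 0.242 in control, with no overlap between siRAB3IP and the rest. Its level in control replicate 1 lay near that of 3 fragments (0.0803 CPM), so its fold change against control rests on few fragments. Between the knockdowns TRIM5 (0.42 ± 0.08) and CXCL10 (1.57 ± 0.44) were higher in siRAB3IP, and RNF213, OGFR, CMTR1 and STAT3 were lower. These were 6 of 31, against 8.85% of all genes.

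Markers of blood and immune cells had summed levels of 6.14 and 5.72 CPM in siRAB3IP, 5.93 and 7.34 in siCAMSAP1, and 5.08 and 5.37 in control over 10 genes. In a library 2 to 4 of the 10 had no fragment. In siRAB3IP and control these sums rest mostly on genes of the list not named here. The red cell gene HBB had 0 fragments, the T cell gene CD3E 0 or 1, and the leukocyte gene PTPRC 0 to 3. Only 4 markers of this list were tested. Their median log2 fold change against control was 0.83 in siRAB3IP and 1.02 in siCAMSAP1, with 3 positive and 1 negative in each. In siRAB3IP 1 was called higher, against 6.39% of all genes, and in siCAMSAP1 0 were called. Between the knockdowns 1 was called lower in siRAB3IP, against 3.96% of all genes. ITGAM, of the same list, rose in siRAB3IP by edgeR (0.793 and 0.586 CPM in siRAB3IP, against 0.161 and 0.0968 in control) and was not called by DESeq2. KRT8 and KRT18 fell in siRAB3IP by 0.56 and 0.72 on the log2 scale while INA, an internexin of neurons, rose by 1.51. Their part in the changes of the interferon-stimulated genes was not tested.

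The authors' deposited table for siRAB3IP holds 2192 genes past their threshold, 15 of them members, 14 higher and 1 lower. Of these, 13 were called here (86.7% of the 15, and 92.9% of the 14 called here), with PARP14 and TLR3 only in the table and OAS1 only among the calls. Their table for siCAMSAP1 holds 474 genes and 4 members, all higher, of which IRF1 and OAS3 were called here (50% of the 4, and 66.7% of the 3 called here), with DTX3L and PARP14 only in the table and GBP3 only among the calls.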

How the data were processed

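Poly(A) RNA libraries (TruSeq RNA kit, per the labels' protocols) gave counts of fragments per gene by featureCounts 1.6.0 (the authors' step, per the file headers). The command line there keeps primary alignments of pairs mapped at both ends and sets no strand, on an hg19 annotation. The submitters' processing notes also name STAR and DESeq2, whose versions are not given in the sources used here. Besides counts, the deposited tables of called genes, computed by the authors, hold signal (counts divided by a size factor per library), log2 fold changes with standard errors, a Wald score and p-values. Each normalized column equals 1 count column up to a factor (tolerance 1e-09 in log2), which tied table names to library numbers.

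The members and all lists were chosen with earlier results of these data known. The test was edgeR 4.0.16 under R 4.3.3 (TMM, default filter, quasi-likelihood test, 1 model over 3 groups, 3 residual degrees of freedom, Benjamini-Hochberg over 22331 genes at 0.05). CPM are counts over TMM-scaled library size. Alternatives were other scalings and filters, limma 3.58.1 (voom), DESeq2 1.42.0, a replicate block, the compared groups alone, each library left out and the grouping by titles, and a robust estimate of the spread was added after seeing the data. Values in every library are given for members called in any comparison, the 4 transcription factors and the 5 highest members per length, and for others where a pattern turns on them. Of 98 entries in the further lists, 97 were matched, IKBKE only to an entry on a patch scaffold. Symbols came from GENCODE 29 and RefSeq, and gene coordinates from the count file. Tables and figures were made in Python 3.11.15 (pandas 2.3.3, numpy 2.4.6, matplotlib 3.10.9). The test was checked on simulated data. Intervals cover counting error only.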

Additional observations from a re-analysis of the deposited data

How the results depend on the processing

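Grouped by the titles of the sample records, 0 members were called in each comparison. There the siRAB3IP against control differences changed sign for GBP1 (-0.17), GBP3 (-0.66), IFI44 (-1.26), OAS1 (-1.93) and SAMD9L (-0.34). They also did for IFIT2 (-0.11), EIF2AK2 (-0.12), HERC5 (-0.16), OAS3 (-0.035) and IFIT1 (0.32). The other called members kept their sign, namely UBE2L6 (0.13), IRF1 (0.10), DTX3L (0.0096) and IFIT3 (0.0062). The member median was 0.01 (0.0072). In siCAMSAP1 against control GBP3 (0.54), IRF1 (0.39) and OAS3 (0.13) kept their sign, with a member median of 0.28. The siRAB3IP against siCAMSAP1 differences were IFI44 -2.40, GBP1 -1.41, GBP3 -1.20, SAMD9L -1.06 and EIF2AK2 -0.16, with a member median of -0.22. Apart from that grouping, 326 values of called members under other settings kept their direction, and 54 of them no longer passed the threshold. With 1 library left out, members called ranged from 5 to 14 in siRAB3IP against control, from 1 to 3 in siCAMSAP1 against control, and from 0 to 6 between the knockdowns. With no filter 7 were called in siCAMSAP1 against control and 8 between the knockdowns. Replicate numbers pair the libraries by label only, and with 2 numbers the deviations of same-numbered libraries correlated at 0.11, 0.15 and 0.15. With a replicate block as a term, 24, 12 and 12 members were called in siRAB3IP against control, siCAMSAP1 against control and siRAB3IP against siCAMSAP1, against 24.1%, 6.31% and 20.7% of all genes, and 0 calls were lost. In siRAB3IP against control 22 of them were higher and 2 lower, adding IFITM1 as lower and GBP2, IFI44L, IFI6, IRF7, OAS2, PARP14, TLR3, TRIM22 and USP18 as higher. In siCAMSAP1 against control 11 were higher and 1 lower, adding IFIT1 as lower and DTX3L, GBP1, IFIT2, IFIT3, PARP14, PARP9, TLR3 and UBE2L6 as higher. Between the knockdowns 10 were higher and 2 lower in siRAB3IP, adding IFIT1 and HERC6 as lower and GBP2, IFI44L, IFI6, OAS1 and TRIM22 as higher. DESeq2 gave no adjusted p for IFI44 and OAS1 in siRAB3IP against control, or for IFI44 between the knockdowns. The cause of these shifts was not tested. Levels under 0.0803 CPM rest on 3 fragments or fewer, which limits OAS1, OAS2, OASL and XAF1.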
